A study of Mus musculus with 24 samples.

Results

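Of 10687 brain sites bound by the nuclear receptor Rev-erbα, 2330 lay within 1 kb of the start of a protein-coding gene, within 100 bp of a liver Rev-erbα binding border, and outside every site called in fat. These 2330 sites, called members here, were chosen by that rule from the deposited lists: no overlap of 1 bp or more with a peak of epididymal white adipose tissue (eWAT), and a centre that met both distances. The label held against the data only as positions in lists, because a list of sites cannot show which cells were bound. The series held 24 mouse samples in 16 groups, of which 3 groups with 5 samples were used. Rev-erbα ChIP-seq of brain tissue (ventral tegmental area, 1 library), Rev-erbα ChIP-exo of liver (2 libraries) and Rev-erbα ChIP-seq of eWAT (2 libraries) all came from wild-type C57BL/6 mice (genotype label C57BL/6J) at zeitgeber time 10, which is 10 h after lights on, with the same antibody against the native protein. The other 13 groups (19 samples), the inputs among them, were not analysed here. ChIP-exo trims immunoprecipitated DNA with exonucleases up to the crosslinked protein, so that each border marks where digestion stopped on 1 strand. Each group was represented by 1 list, so the values below carry no spread between libraries, intervals cover counting error over sites, and p-values over sites treat neighbouring sites as independent and describe these lists, not animals.

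Rev-erbα (gene Nr1d1) is a heme-binding receptor that represses transcription in the negative limb of the circadian clock. It binds DNA directly at the RORE, an AGGTCA core after an A/T-rich stretch that it shares with the activating ROR receptors, and as a dimer at a direct repeat of that core. It also associates with DNA through other transcription factors, and it recruits the NCoR and HDAC3 corepressor complex. CLOCK and BMAL1 act through the E-box, and the proline- and acid-rich (PAR) bZIP factors Dbp, Tef and Hlf act through the D-box, so these elements and the RORE are the standard DNA sequences of the clock.

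For 10 members, the sequence is printed to show the elements on which the results turn: the E-box, the D-box, a palindrome of CpG-rich promoters, the RORE, the CCAAT box and the ETS site, with the motif in capitals. Each is the whole 150-bp brain peak, read on the plus strand of mm9, and borders are given by their base in it. They were picked from the named members after their borders had been seen, and they include sites whose borders do not flank the motif. BC031781, Napa, Hbp1 and Tef hold the E-box CACGTG, Per3 and Txndc16 the D-box, Rpl10a the CTCGCGAG palindrome, Arntl the RORE, Dbp the CCAAT box (read here as ATTGG) and Bop1 the ETS core (read here as CTTCCGG).
BC031781, chr1:182781054-182781203: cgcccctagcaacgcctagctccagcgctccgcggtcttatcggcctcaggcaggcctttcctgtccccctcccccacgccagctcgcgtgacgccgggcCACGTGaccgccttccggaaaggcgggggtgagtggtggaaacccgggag
Napa, chr7:16683730-16683879: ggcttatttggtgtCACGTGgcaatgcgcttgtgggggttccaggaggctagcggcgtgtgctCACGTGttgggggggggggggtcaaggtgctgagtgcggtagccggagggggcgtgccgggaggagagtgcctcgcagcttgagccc
Hbp1, chr12:32635403-32635552: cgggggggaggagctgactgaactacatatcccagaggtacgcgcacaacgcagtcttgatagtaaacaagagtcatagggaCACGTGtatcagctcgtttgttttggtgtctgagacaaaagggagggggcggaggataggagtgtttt
Tef, chr15:81641307-81641456: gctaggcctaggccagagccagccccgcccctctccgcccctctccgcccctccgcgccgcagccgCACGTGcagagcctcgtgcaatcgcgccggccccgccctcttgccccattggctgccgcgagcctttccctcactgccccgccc
Per3, chr4:150418793-150418942: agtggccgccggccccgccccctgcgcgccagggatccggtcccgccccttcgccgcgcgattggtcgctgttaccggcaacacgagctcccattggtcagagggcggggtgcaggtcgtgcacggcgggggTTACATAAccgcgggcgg
Txndc16, chr14:45839081-45839230: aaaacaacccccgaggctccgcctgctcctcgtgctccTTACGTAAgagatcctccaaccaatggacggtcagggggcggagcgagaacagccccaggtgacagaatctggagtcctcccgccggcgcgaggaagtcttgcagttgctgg
Rpl10a, chr17:28465417-28465566: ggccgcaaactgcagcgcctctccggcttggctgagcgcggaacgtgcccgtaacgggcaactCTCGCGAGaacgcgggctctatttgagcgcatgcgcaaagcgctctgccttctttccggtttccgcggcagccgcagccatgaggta
Arntl, chr7:120350918-120351067: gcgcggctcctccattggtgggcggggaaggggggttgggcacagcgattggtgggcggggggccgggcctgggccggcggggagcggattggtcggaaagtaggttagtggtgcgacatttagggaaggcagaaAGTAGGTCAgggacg
Dbp, chr7:52960343-52960492: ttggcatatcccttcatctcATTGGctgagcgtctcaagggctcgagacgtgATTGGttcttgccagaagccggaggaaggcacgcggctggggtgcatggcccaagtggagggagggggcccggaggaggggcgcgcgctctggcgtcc
Bop1, chr15:76307609-76307758: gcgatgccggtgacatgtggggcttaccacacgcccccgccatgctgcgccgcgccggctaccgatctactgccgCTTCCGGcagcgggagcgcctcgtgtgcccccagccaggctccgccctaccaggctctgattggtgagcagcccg

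In BC031781 the E-box filled bases 101 to 106, with a plus-strand border at base 90, 11 bases before it, and a minus-strand border at base 116, 10 bases after it; a further minus-strand border lay 21 bases before it. Napa, which encodes an adaptor that disassembles SNARE complexes, held 2 E-boxes, and the second had a plus-strand border 11 bases before it and a minus-strand border 10 bases after it, with a further plus-strand border 34 bases after it. The D-box of Txndc16 had borders 11 bases away on both sides, and the D-box of Per3 a minus-strand border 11 bases after it and a plus-strand border 29 bases after it. Rpl10a had a plus-strand border 5 bases before its palindrome and a minus-strand border 12 bases after it, besides borders 52 bases before and 37 bases after. These 5 sites thus carried a border facing the motif from close outside it, and in all but Per3 on both sides, and 4 of them had further borders. The arrangement was different at the others. In Hbp1, a gene of an HMG-box repressor, the plus-strand border stopped 18 bases before the E-box and minus-strand borders lay 6 bases before it and 30 bases after it. In Tef the minus-strand border lay 9 bases before the E-box and the plus-strand border 96 bases after it. The single border at Arntl was 97 bases from its RORE, and the Dbp borders were 51 and 80 bases from the nearest CCAAT box. Bop1 had 8 borders, of which those with signals of 0.339 and 0.415 lay on the ETS core itself. The others lay 10 to 90 bases from it, the strongest, of signal 0.509, 19 bases before it.

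By brain score, the members were led by genes of the circadian clock. The score is the authors' own value per peak, of undefined unit, and moved in steps of 3.636. It ran from 18.2 to 345.4 in members with a median of 32.7, which is 9 steps, against medians of 25.5 in the 1566 promoter sites outside eWAT with no border within 100 bp, 29.1 in the 1145 distal sites outside eWAT with a border, and 54.5 in the 129 promoter sites with a border that overlapped an eWAT peak. Tef, a PAR bZIP activator, had the highest score at 345.4, from a peak 94 bp upstream of a start within an intron (rank 8 of all brain peaks). Dbp, a second PAR bZIP gene, had a score of 320.0 at 40 bp upstream, and Per3, a Period gene, 189.1 at 94 bp upstream. Arntl, which encodes BMAL1, had a score of 167.3 with its centre 14 bp downstream of the start in an exon annotated as UTR. These 4 clock genes thus stood among the 6 members with the highest scores. The others were Mepce, the capping enzyme of 7SK RNA, at 181.8, and Sumo2, a small ubiquitin-like modifier, at 178.2.

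The next 6 by score were genes of other functions. A peak between the divergent starts of 4632404H12Rik and Ube2q1, an E2 ubiquitin enzyme gene, scored 156.4, Klf11, a Krüppel-like factor, scored 149.1, and BC031781 scored 138.2. Napa scored 134.5, and Pnrc1, a receptor coregulator, and Ptp4a2, a phosphatase, each scored 130.9. Scores of most members were far below these: the lower and upper quartiles were 25.5 and 43.6. Read as steps, members ran from 5 to 95.

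Of 3896 brain promoter sites outside eWAT, the 2330 members were 59.8% (95% Wilson interval 58.3 to 61.3). The share with a liver border was 18.8% of the 6085 distal sites outside eWAT and 85.4% of the 151 promoter sites shared with eWAT. These shares describe the rule and were not tested. Just inside the border limit, 78 members had their nearest border 91 to 100 bp from the centre, with a median score of 32.7, and 72 sites just outside, at 101 to 110 bp, had a median score of 29.1. The E-box described below was in 3.85% of these members and 6.94% of the sites just outside, and CpG-rich sequence surrounded 82.05% and 84.7%. At the other limit, 49 members lay 801 to 1000 bp from a start with a median score of 32.7, and 34 sites with a border lay 1001 to 1200 bp away with a median of 34.55.

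The members sat close to the start and mostly just upstream of it. The median distance was 87 bp, and 68.3% of centres (66.4 to 70.1) lay upstream. Centres from 100 bp upstream to the start itself made up 34.0% of members, and those from the start to 100 bp downstream 20.6%. By annotation, 51.2% of centres were intergenic, 33.05% were in an exon of a protein-coding gene (26.1% of all members in UTR), and 15.8% were in an intron. Of the 5090 borders within 100 bp of a member's centre, 46.7% (45.3 to 48.1) were on the strand of the nearest gene. Their median position was 58 bp upstream for borders on the gene's strand and 53 bp upstream for those on the opposite strand.

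**Figure D1:**
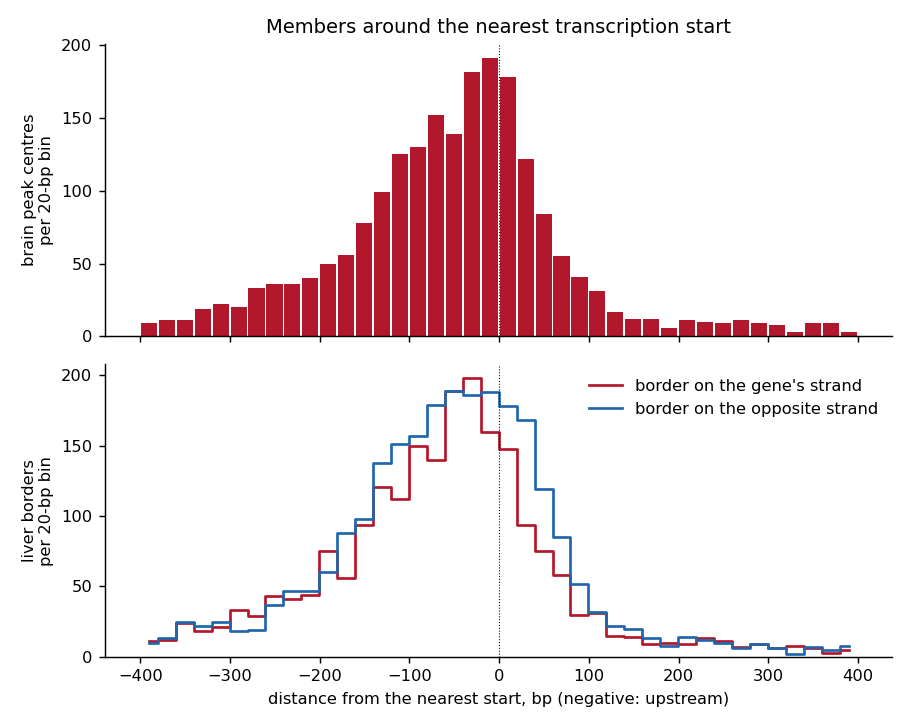
Members around the nearest transcription start. The upper panel counts brain peak centres and the lower panel liver borders on the gene's strand and on the opposite strand, per 20-bp bin of distance from the start (x axis, bp, negative upstream). Both rise upstream of the start, and 68.3% of the 2330 centres lie on that side.

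Members were closer to starts than the promoter sites without a border, although both sets lay within 1 kb by rule: 54.7% of members and 34.9% of sites without a border had their centre within 100 bp of a start (odds ratio 2.25). The rule itself used this distance, so these values are a description without a test. CpG-rich sequence, defined as at least 50% G and C and an observed-to-expected CpG ratio of at least 0.6 over 500 bp, surrounded 85.4% of members, 61% of sites without a border and 17.3% of distal sites with a border. The odds ratio was 3.74 (3.20 to 4.38) against sites without a border (Benjamini-Hochberg adjusted p = 3.92e-66 by two-sided Fisher's exact test, over 9 site properties). Against the distal sites it was 27.95 (23.01 to 34.07), a description, because the rule split members from distal sites by distance from a start. The members' median G and C content over the same 500 bp was 62.6%. Scores at or above the median of the brain list were held by 85.4% of members and 64.8% of promoter sites without a border (odds ratio 3.19, 2.72 to 3.73, adjusted p = 8.77e-50 by Fisher's exact test). Border, closeness to the start, CpG content and score thus moved together in these lists, and their separate parts were not tested.

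Divergent starts, where genes on opposite strands begin near each other, lay at 13.8% of members and 8.75% of promoter sites without a border (odds ratio 1.67, 1.35 to 2.08, adjusted p = 1.39e-06 by Fisher's exact test). Both starts were counted within the 1 kb of the centre that the rule used. Members lay closer to starts, so the test cannot set divergence apart from that closeness. Mepce with Zcwpw1, 4632404H12Rik with Ube2q1, and Eid1 with Shc4 had the highest scores among such members, the last at 127.3. The call ended when borders had to be paired (odds ratio 1.01), to have p of at most 0.02 (1.19), or when only CpG-rich sites were compared (1.27).

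Motifs were searched as exact letters on both strands of the 150-bp peaks, 24 in all, and some of them overlap (the RORE can hold AGGTCA, and the cyclic AMP response element its shorter core). Against promoter sites without a border, 13 of 24 motifs passed (54.2%), 11 of them higher in members (45.8%) and 2 lower (8.33%), at an adjusted p below 0.05 in Fisher's exact tests adjusted over both comparisons. Against distal sites with a border, 19 passed (79.2%), 10 higher in members (41.7%) and 9 lower (37.5%). A call in the second comparison is thus near the background of that comparison. Distance from a start also differs between the 2 sets of that comparison by rule, and CpG-rich sequence differs with it. Calls and p-values against distal sites, here and below, thus describe that split too and cannot set a motif apart from it. When only CpG-rich sites were compared, 10 motifs passed against sites without a border and 1 against distal sites.

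The E-box (CACGTG), the element of CLOCK, BMAL1 and the USF factors, was held by 14.9% of members (348 sites, interval 13.6 to 16.4), 5.17% of promoter sites without a border and 3.87% of all annotated starts in a window of the same length. The odds ratio against sites without a border was 3.22 (2.50 to 4.19, adjusted p = 8.06e-22 by Fisher's exact test). Among CpG-rich sites alone it was 15.8% of members and 5.97% of sites without a border, and among CpG-rich sites with the centre within 100 bp of a start the odds ratio was 3.05 (adjusted p = 2.5e-06 by Fisher's exact test). Only the E-box and NRF1 passed in that last setting, which was added after the data were seen. Over all 14 alternatives the E-box odds ratio against sites without a border ran from 1.86 to 3.61. The E-box was not particular to the members: it was held by 10.5% of distal sites with a border (odds ratio 1.5, adjusted p = 7.81e-04 by Fisher's exact test), and among CpG-rich sites that odds ratio was 0.699, which did not pass. It was held by 46.5% of the 129 promoter sites shared with eWAT, against which the members' odds ratio was 0.202 (0.138 to 0.296, adjusted p = 6.20e-16 by Fisher's exact test over 5 tests added after these values were seen).

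Motifs of broadly used promoters were also more frequent in members than in both other sets. The GC box (GGGCGG) of SP and KLF factors was in 48.2% of members, 33.5% of sites without a border and 14.8% of distal sites with a border, with 29.2% at all starts. The CCAAT box, which NF-Y binds, was in 24.1% of members, 18.1% of sites without a border and 17.2% of distal sites. The ETS core (CCGGAAG) was in 12.2%, 5.68% and 3.23% of the same 3 sets, and 7.03% of all starts. NRF1, a regulator of genes for mitochondria, had its motif (GCATGCGC) in 3.09% of members, 0.830% of sites without a border and 1.22% of distal sites. All 4 passed as higher in members in both comparisons, with odds ratios of 1.85, 1.43, 2.31 and 3.81 against sites without a border. Most of these 4 calls against distal sites, which differ from members in distance from a start by rule, ended when only CpG-rich sites were compared. Against sites without a border, the GC box, the CCAAT box and the ETS core did not pass when only CpG-rich sites within 100 bp of a start were compared (odds ratios 1.05, 1.20 and 1.45).

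The elements that Rev-erbα binds itself were rare in members. The RORE (ANTAGGTCA or ANTGGGTCA) was in 22 members, 0.944% (0.624 to 1.43), against 1.28% of promoter sites without a border, 4.63% of distal sites with a border and 0.493% of all starts. The share was lower in members than in distal sites (odds ratio 0.197, 0.113 to 0.331, adjusted p = 1.275e-10 by Fisher's exact test). The rule split these sets by distance from a start, so this test cannot set the RORE apart from that split. The difference from sites without a border did not pass (odds ratio 0.737, interval 0.382 to 1.43, adjusted p = 0.424 by Fisher's exact test). With borders counted up to 200 bp, or with border p of at most 0.02, that second difference passed as well, at odds ratios of 0.447 and 0.442. It turned the other way when only sites within 100 bp of a start were compared, with or without a CpG-rich limit. Arntl (score 167.3), Fbxo30 (94.5), Strn (54.5) and Clock (50.9) were the highest-scoring members with a RORE. The AGGTCA core alone was in 7.12% of members, 6.90% of sites without a border and 15.9% of distal sites. The direct repeat, GGTCA repeated after 3 bases, was found in 1 member (0.0429%). It was in 0.447% of promoter sites without a border (7 sites), 0.524% of distal sites (6 sites) and 0.0257% of all starts. The direct repeat passed as lower in members in both comparisons (adjusted p = 0.0145 and 0.01225 by Fisher's exact test), on these few sites. Any of the 4 receptor motifs was in 7.597% of members, any of 9 promoter motifs in 74.6%, and none of either class in 23.35%. The 9 were taken from motifs that passed as higher in members. These combined shares were counted in members only, so they have no background here. At all starts the AGGTCA core alone was in 7.26% and the GC box alone in 29.2%.

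Among motifs of liver factors and inducible factors, and the D-box, some were lower in members than in distal sites with a border and others were not. The forkhead core (TGTTTAC) was in 1.33% of members and 3.41% of distal sites, AP-1 (TGANTCA) in 2.36% and 4.98%, and the D-box (TTANGTAA) in 1.42% and 3.23%. All 3 passed as lower, and in none of the 3 did the difference from promoter sites without a border pass. Onecut (ATCAAT or ATCGAT), in 2.40% of members and 4.10% of distal sites, passed as lower too, and was higher in members than in sites without a border (1.34%, adjusted p = 0.0304 by Fisher's exact test). The differences from distal sites did not pass for HNF4 (CAAAGTCC, 0.558% of members and 0.961% of distal sites, adjusted p = 0.258 by Fisher's exact test) or the C/EBP palindrome (TTGNGCAA, 1.50% and 2.27%, adjusted p = 0.178). The cyclic AMP response element (TGACGTCA), a site of inducible CREB factors, was higher in members, at 2.62% against 0.873% of distal sites (odds ratio 3.05, adjusted p = 0.00126 by Fisher's exact test) and 1.34% of sites without a border. Among CpG-rich sites alone, the differences from distal sites turned the other way for the D-box, Onecut and the cyclic AMP response element. The differences from distal sites thus cannot be set apart from the rule's split by distance from a start. The D-box was in 6.00% of the 100 members with the highest scores and in 0.843% of those ranked 1501 to 2330, and the highest-scoring members with it were Per3, Sumo2, Tmem57 and Ccdc47. TATA boxes (TATAAA) were in 1.80% of members, 3.38% of sites without a border, 3.32% of distal sites and 5.19% of all starts.

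**Figure D2:**
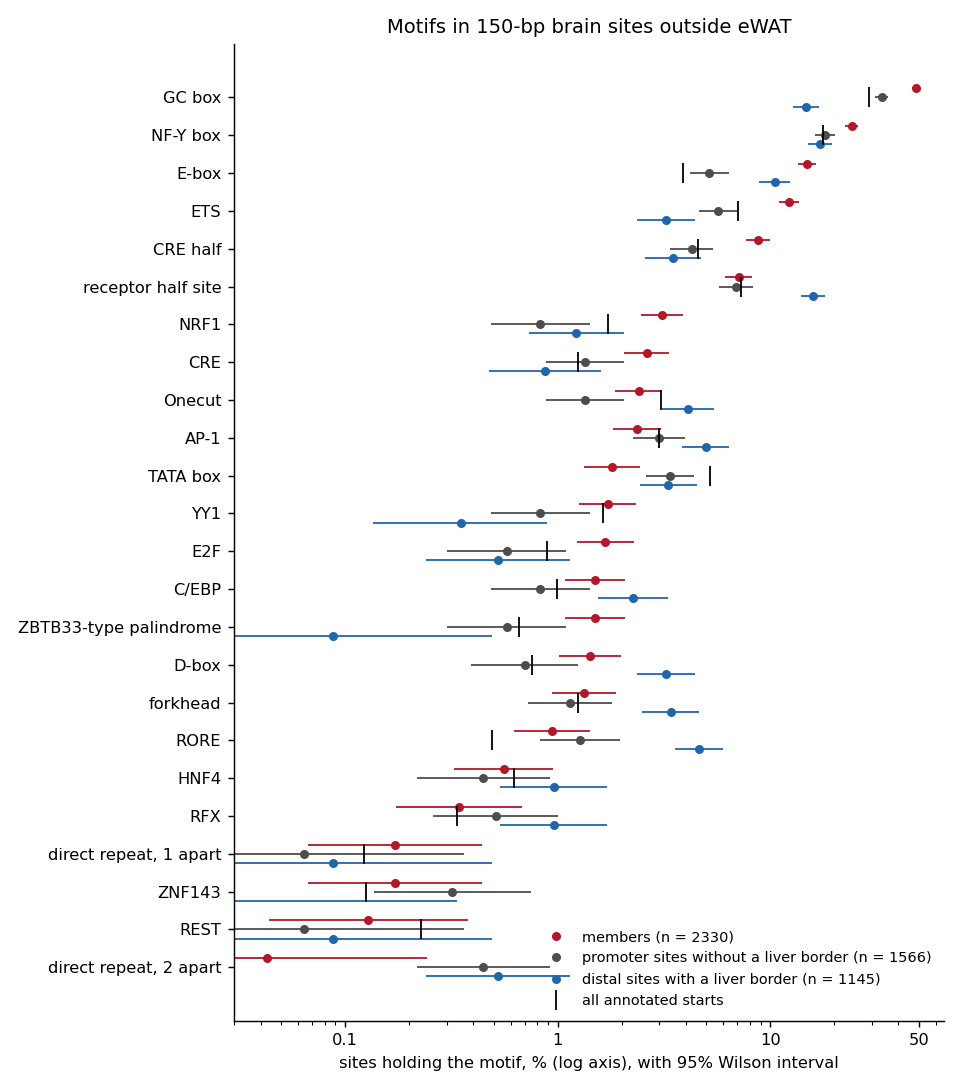
Share of sites holding each motif. The x axis is the percentage of 150-bp sites on a log axis with 95% Wilson intervals; points are members, promoter sites without a border and distal sites with a border, and ticks are all annotated starts. The E-box lies at 14.9% of members, against 5.17% of sites without a border and 3.87% of all starts, and the RORE at 0.944% of members, against 4.63% of distal sites.

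The positions of liver borders relative to a motif were not used to choose the members, beyond the 100 bp from the peak's centre. In the 310 members that held the E-box once, borders gathered at fixed distances from it. The E-box is a palindrome, so the plus strand of the genome was taken as its own. The most common position on that strand was 11 bases before the first base (31 borders). On the opposite strand it was 10 bases after the last (25 borders), with 24 borders at 11 bases after it. Within 8 to 17 bases outside the motif, 44.8% of these members (39.4 to 50.4) had a border facing it, which is one on the same strand before it or on the opposite strand after it, and 14.2% (10.8 to 18.5) had one on the mirrored strand. Both facing borders were present at 22 of the 310 sites. The window was set after these positions had been seen, so the shares are a description with no test.

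The same shape was seen at some other motifs and not at the common ones. The D-box, held once by 32 members, had a facing border at 53.1% and a mirrored one at 6.25%, with most common positions 11 bases away on both sides. The CTCGCGAG palindrome (32 members) had 46.9% and 6.25%, the C/EBP palindrome TTGNGCAA (35 members) 40.0% and 14.3%, and NRF1 (49 members) 28.6% and 6.12%. Facing and mirrored shares were alike at the GC box (11.4% and 11.3% of 682 members), the CCAAT box (10.05% and 10.3% of 398) and the ETS core (15.1% and 13.5% of 245). At the ETS core 14 borders nonetheless lay at a single position, 9 bases before the motif on its strand. At the RORE, 1 of 22 members had a facing border (4.55%) and 2 a mirrored one (9.09%). Facing borders at single E-boxes were found at 42.6% of 108 distal sites and 64.3% of 42 sites shared with eWAT, beside the members' 44.8%. At single D-boxes they were found at 55.6% of 36 distal sites, beside the members' 53.1%. At single Onecut motifs they were found at 47.8% of 46 distal sites, beside the members' 27.8%.

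**Figure D3:**
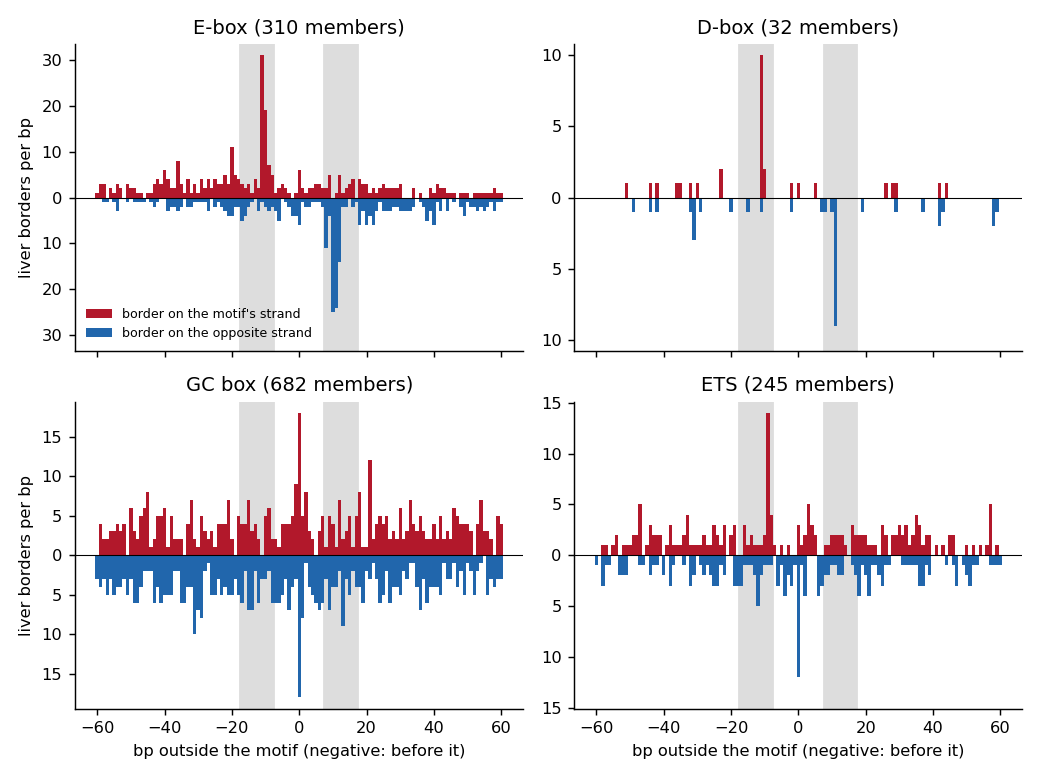
Liver borders around motifs held once by a member. The y axis counts borders per base on the motif's strand (upward) and on the opposite strand (downward), the x axis is the distance outside the motif in bp, position 0 pools borders on the motif itself, and grey bands mark 8 to 17 bp. Borders pile up 10 to 11 bp on both sides of the E-box, and 11 bp on both sides of the D-box. The GC box and the ETS core have facing shares of 11.4% and 15.1%, against mirrored shares of 11.3% and 13.5%.

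The members had 1 to 8 borders within 100 bp of the centre, with a median of 2, and 38.5% had a single border. The authors' border signals, summed over each member, ran from 0.100 to 18.05 with a median of 1.102, against 0.955 in distal sites with a border and 3.68 in promoter sites shared with eWAT. Opposite-strand pairs, a plus-strand border followed 5 to 60 bp downstream by a minus-strand border, were present at 24.7% of members, with a median spacing of 26 bp. The shares were 25.7% in distal sites with a border and 46.5% in the sites shared with eWAT. Against the distal sites the odds ratio was 0.948 (0.804 to 1.12, adjusted p = 0.532 by Fisher's exact test), and it was 1.21 and passed when borders were counted up to 200 bp. Against the shared sites it was 0.377 (0.259 to 0.549, adjusted p = 3.52e-07 by Fisher's exact test), and it was 1.14 and did not pass with border p of at most 0.02. Summed signals above the median were found at 48.5% of members, 44.2% of distal sites (odds ratio 1.19, adjusted p = 0.0191 by Fisher's exact test) and 80.6% of shared sites (odds ratio 0.227, adjusted p = 6.08e-13 by Fisher's exact test). The small difference from distal sites turned to odds ratios of 0.809 with paired borders and 0.767 among CpG-rich sites, neither of which passed. All sets compared here had a border within 100 bp by rule, and pairs and summed signals come from those same borders. These tests thus compare sets already chosen by having them.

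The members with the strongest border signals were only in part those with the highest brain scores. Btbd19 had the highest summed signal, 18.05, with a brain score of 80.0 and its centre 738 bp downstream of a start. Dbp had a summed signal of 17.7, and a second Tef site, 122 bp downstream of another start, 17.35 with a score of 127.3. Txndc16 had 13.2, Hbp1 11.1, BC031781 10.6 and the upstream Tef site 10.3. Ip6k1, an inositol hexakisphosphate kinase, had 10.1, Arrb2, encoding β-arrestin 2, 9.97, Per3 9.71, Foxo3, a forkhead factor, 9.45, and Eef2k, the kinase of elongation factor 2, 9.05. Arntl had a summed signal of 1.74 from 1 border, beside its score of 167.3. Over all 2330 members, Spearman's rank correlation of score and summed signal was 0.326, across sites of 2 lists that share no library.

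E-boxes were more frequent toward the top of both measures. They were held by 31% of the 100 members with the highest scores (22.8 to 40.6), 18.75% of ranks 101 to 500, 16.6% of ranks 501 to 1000, 13.4% of ranks 1001 to 1500 and 11.1% of ranks 1501 to 2330. Among members with an E-box, 71.0% had a summed border signal above the median, against 44.6% of members without one (odds ratio 3.04, 2.36 to 3.93, adjusted p = 2.95e-19 by Fisher's exact test over the 5 added tests). Opposite-strand pairs were at 37.6% of members with an E-box and 22.4% of those without (odds ratio 2.09, 1.63 to 2.68, adjusted p = 6.33e-09 by Fisher's exact test). The median summed signal was 2.03 with an E-box and 1.02 without, and the median brain score 36.4 with and 32.7 without. CpG-rich sequence also differed, at 90.5% of members with an E-box and 84.5% without (adjusted p = 0.00295 by Fisher's exact test), and its part in these differences was not tested.

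**Figure D4:**
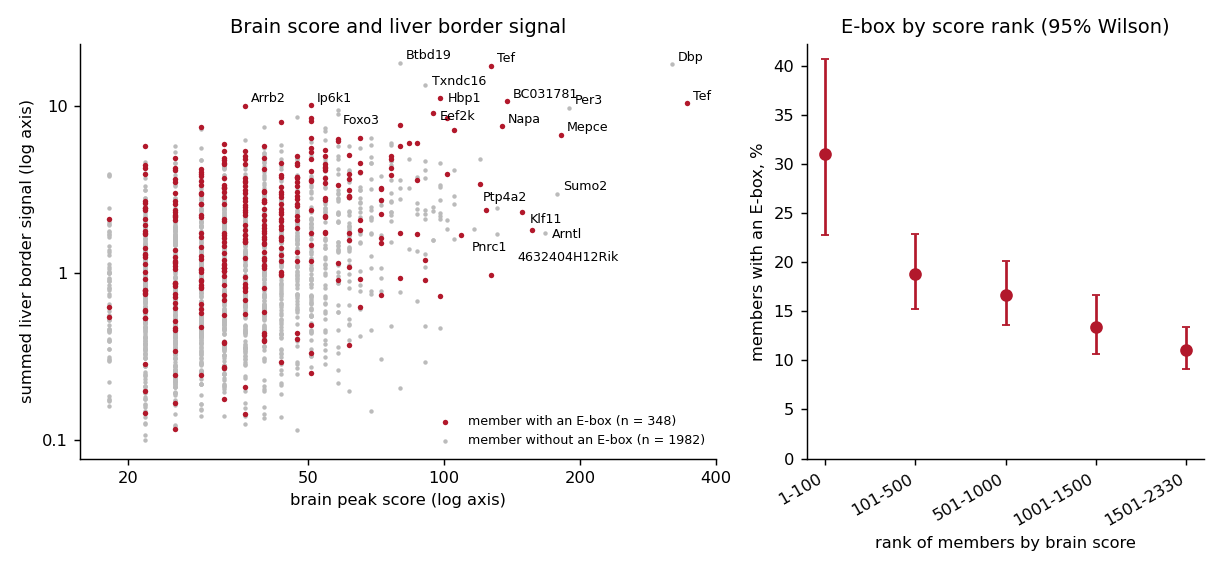
Left, brain peak score (x, log axis) and summed liver border signal (y, log axis) of each member, with E-box members in red and the named members labelled. Right, percentage of members with an E-box by rank of brain score, with 95% Wilson intervals, which runs from 31% in the first 100 ranks to 11.1% in ranks 1501 to 2330.

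Members lay within 1 kb of a start of 2551 of 22208 protein-coding gene symbols, which is the background of 11.5% for every gene list. Of these genes, 5.02% also lay within 1 kb of an eWAT peak, against 3.59% of all gene symbols. Of 36 gene lists, 27 had a share above the background, 13 of them with a 95% interval wholly above it, and 4 had an interval wholly below it. The lists were chosen with earlier results of these data known, so their shares are descriptions without a test. Clock genes had the highest share, 40.0% or 10 of 25 (23.4 to 59.3). A brain promoter site of any kind lay at 84.0% of clock genes (21 of 25), against 18.4% of all gene symbols. The high clock share was thus not particular to the members. The share with any such site was also above 18.4% in other lists, such as aminoacyl-tRNA synthetases (46.0%) and cytosolic ribosomal proteins (30.5%).

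The clock genes with a member included Tef, Dbp, Per3, Arntl, Per1, Nfil3, Clock, Hlf and Csnk1e, named here although the rule for named genes takes 3 per list. Tef, Dbp, Per3 and Arntl are described above. Per1, a second Period gene, and Nfil3, a repressor of D-boxes, each had a score of 69.1, with summed signals of 1.74 and 3.17. Clock, the partner of BMAL1, scored 50.9 with 1 border of signal 0.722, 522 bp downstream of its start in an intron. Hlf and Csnk1e, a kinase of PER proteins, scored 29.1 each. Dbp, Per1 and Hlf also had a brain promoter site that overlapped an eWAT peak and had a border. Among the clock genes with no member, Nr1d1, Nr1d2, Per2, Cry2, Npas2, Bhlhe40, Bhlhe41 and Gm129 had only such shared sites, and Cry1 and Rora had sites without a border. The absence of Nr1d1, Nr1d2 and Per2 from the members is thus part of the rule that leaves out eWAT sites.

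Lists of genes that every cell uses for protein and RNA production had shares above the background, some with intervals that include it. Aminoacyl-tRNA synthetases, which charge tRNAs, had members at 14 of 37 genes (37.8%), among them Eprs (score 105.4), Mars2 (90.9) and Yars (50.9, shared with S100pbp). RNA polymerase subunits had 10 of 27 (37.0%), with Polr3a at 76.4, Polr1c at 65.4 and Polr2e at 40.0. Cytosolic ribosomal proteins had 22 of 82 (26.8%), led by Rpl10a at 83.6, Rpl27 at 80.0 and Rps3a at 54.5. Splicing factors had 12 of 44 (27.3%), with Srsf1 at 58.2, Snrpc at 54.5 and Srsf6 at 47.3. These 4 lists had intervals wholly above the background. Translation initiation factors had 11 of 57 (19.3%, 11.1 to 31.3), mitochondrial ribosomal proteins 12 of 76 (15.8%, 9.27 to 25.6) and Mediator subunits 5 of 30 (16.7%, 7.34 to 33.6), and these 3 intervals include the background.

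Mitochondrial and ciliary genes were also among the lists with high shares. Mitochondrial import genes had members at 8 of 22 (36.4%), with Tomm20 at a score of 58.2 and Tomm40 and Tomm22 at 43.6 each. Respiratory complexes II to V had 14 of 57 (24.6%), led by Atp5g2 at 98.2, and complex I and its assembly factors 9 of 42 (21.4%), led by Ndufa6 at 76.4. Ciliary transport genes had 7 of 20 (35%), with Ift172 at 54.5, Bbs2 at 36.4 and Ift20 at 32.7. DNA replication and repair genes had 18 of 75 (24%), vesicle coat and tethering genes 16 of 70 (22.9%), and ubiquitin-conjugating enzymes 9 of 36 (25%). Among the corepressor genes that work with Rev-erbα, 2 of 6 had a member (33.3%, 9.68 to 70.0). These were Tbl1xr1 at 61.8 and Hdac3 at 25.5 (a site between Hdac3 and Rell2). Heme genes had 2 of 13 (15.4%, 4.33 to 42.2), Alad at 32.7 and Hmox1 at 21.8, Hmox1 having 5 borders and an E-box. The intervals of the corepressor and heme lists include the background of 11.5%.

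Lists of genes typical of particular tissues or cell types, and those of collagens and potassium channels, had shares below the background except for adipocyte genes, and 5 of these 9 intervals include it. No member lay at any of 24 neuron genes, 18 glia genes, 94 potassium channel genes, 44 collagen genes or 1113 olfactory receptor genes. Counts of 0 in the neuron and glia lists have upper 95% Wilson limits of 13.8% and 17.6%, which include the background of 11.5%, while those of the other 3 lists, 3.93%, 8.03% and 0.344%, lie below it. Among dopamine neuron genes, which mark a major cell type of the ventral tegmental area, 1 of 18 had a member (5.56%, 0.988 to 25.8), En2 at a score of 50.9. Hepatocyte genes had 1 of 19 (5.26%, 0.935 to 24.6), Ass1, a urea cycle enzyme, at 47.3. Cytochrome P450 genes had 1 of 98 (1.02%, 0.180 to 5.555), Cyp7b1 at 21.8, an interval wholly below the background. Adipocyte genes had 4 of 27 (14.8%, 5.92 to 32.5), a share above the background with an interval that includes it, led by the lipase gene Pnpla2 at 43.6, Fasn at 40.0 and Cebpa at 36.4. CpG-rich sequence surrounded 85.4% of members, and its part in the shares of the gene lists was not tested.

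**Figure D5:**
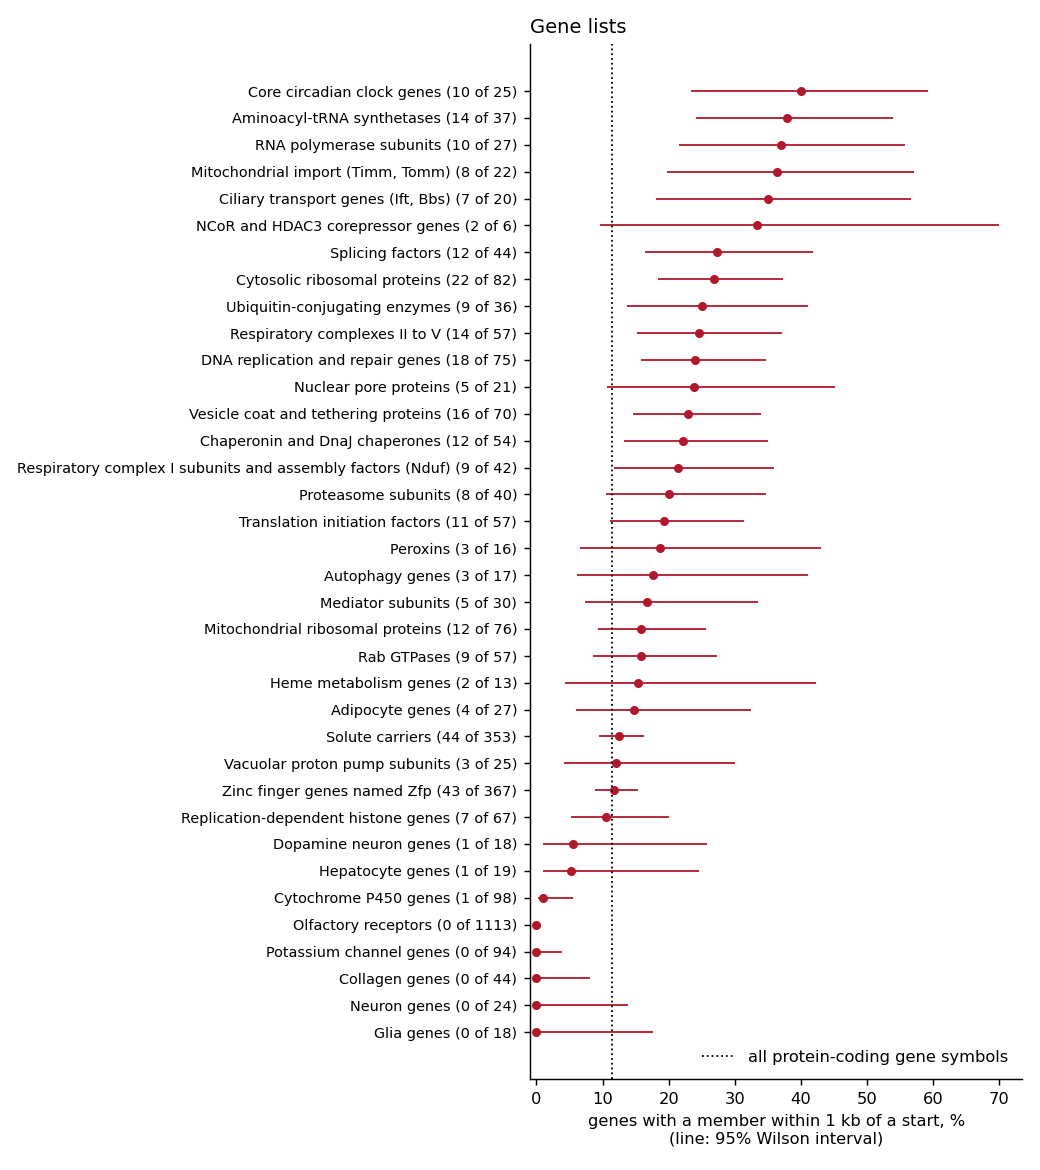
Percentage of the genes of each list with a member within 1 kb of a start (x axis), with 95% Wilson intervals; the dotted line is the 11.5% of all 22208 gene symbols. Clock genes are at the top with 10 of 25, and the lists of olfactory receptor, potassium channel, collagen, neuron and glia genes have 0.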

How the data were processed

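Rev-erbα binding sites of brain (1 library), eWAT (2 libraries) and liver (2 ChIP-exo libraries) were taken as the authors deposited them, as 1 list per group. Per the submitters' processing notes, reads of ChIP-seq went with Bowtie 0.12.8 and those of ChIP-exo with Bowtie 1.1.1, both with HOMER (no version) and build mm9. How peaks and borders were called, whether inputs were used, and whether replicates were pooled is not given in the sources used here, nor is read depth, so the depth behind each site is unknown. The deposited score of each peak has no defined unit and was used only to rank or filter within its list. Each liver border carries a signal and a p-value per the file headers (p from 0.00503 to 0.05). A stricter threshold by the authors would remove weak sites and with them members. Starts of genes on both strands within 1 kb of a centre were called divergent.

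Peaks were placed by the central base of their 150 bp. Starts were the 70018 of 22350 protein-coding genes of GENCODE vM1 (mm9) on chromosomes 1 to 19 and X. Members were named by their nearest start. Shares of sites were compared by two-sided Fisher's exact tests with Benjamini-Hochberg adjustment over 9 site properties and over 48 motif tests, and exact conditional intervals of odds ratios were used. The median for summed border signals is over all brain peaks with a border. Python 3.11.15, scipy 1.17.1, pandas 2.3.3 and pysam 0.24.0 were used, and the functions were tested on simulated data. Named were the 12 members highest in score and the 12 highest in summed signal, up to 3 per gene list, 4 per passing motif and 3 with divergent starts. Not named were 9 members with over 10 brain peaks within 100 kb. The members and lists were chosen with earlier results of these data known, and the flank window, the printed sequences, 3 alternatives and 5 tests after the values were seen. Some named genes are not reported here.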

Additional observations from a re-analysis of the deposited data

How the results depend on the processing

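Lists without replicate values and with unknown depth limit all results, and sites are the only units. No paired analysis was possible because the files hold 1 list per group and no value per replicate, so leaving out a replicate could not be run either. The calls for score, CpG-rich sequence and the E-box against sites without a border were rerun under 11 planned and 3 added alternatives. Wherever computed, they kept their direction and passed. The share of promoter sites with a border was 44.5% and 70.9% with limits of 50 and 200 bp, 63.1% and 56.3% with starts within 500 bp and 2 kb, 70.8% above the list medians, 17.7% with paired borders, 37.99% with border p of at most 0.02, 67.6% in CpG-rich sites, 70.0% within 100 bp of a start and 73.7% with both. Members were 689 with paired borders, which here counts a border whose partner can lie beyond 100 bp, 1480 at border p of at most 0.02, 1274 within 100 bp of a start and 1158 with both. Gene symbols with a member were, in the first order, 8.69%, 13.4%, 10.7%, 12.1%, 8.26%, 3.445%, 7.42%, 10.05%, 6.77% and 6.21%. Single E-box members with a facing border were 39.3% at 50 bp, 51.3% with paired borders and 31.2% at border p of at most 0.02. Motifs passing against sites without a border were 8 at 50 bp and in the 100-bp motif window, 6 above the medians and with paired borders, 5 within 100 bp of a start and 2 with both, and against distal sites 7 with paired borders and 1 in CpG-rich sites. The odds ratio of divergent starts, 1.67, was 1.01 with paired borders, 1.19 at border p of at most 0.02 and 1.27 in CpG-rich sites. That of summed signal against distal sites, 1.19, was 1.13 at 50 bp, 1.15 with an eWAT overlap of 75 bp, 1.16 at border p of at most 0.02, 0.809 with paired borders and 0.767 in CpG-rich sites. Pairs had 1.21 and 1.04 against distal sites at 200 bp and with starts within 500 bp, and 1.14 against shared sites at border p of at most 0.02. Against distal sites the odds ratio turned for the TATA box with paired borders (1.29) and in CpG-rich sites for Onecut (4.45), the cyclic AMP response element (0.819), the E-box (0.699) and the D-box (2.71). For the RORE against sites without a border it was 1.29 within 100 bp of a start and 1.43 with both. In 5 motif comparisons an alternative gave no finite odds ratio. The causes were not tested.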

Other observations

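The members were spread over all autosomes at 8.38 to 14.4 per 100 protein-coding genes (chromosomes 7 and 11), and chromosome X had 24 members, 2.59 per 100 genes. Starts of 105 genes had 2 or more members. Of the 348 members with an E-box, 138 (39.7%) held it as GTCACGTG on either strand, as did 25 of 81 promoter sites without a border (30.9%), and 52 members (14.9%) held the palindrome TCACGTGA, as did 10 of those sites (12.3%). These values were not tested.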
